A study of Homo sapiens with 17 samples.

Results

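FOS, FOSB, FOSL1, FOSL2, JUN, JUNB, JUND, EGR1, ATF3 and IER2 are genes of the AP-1 and immediate early response, and they are 10 of the 20037 protein-coding genes examined. They were chosen by name, and their H2A.Z was read from the peak intervals that lay within 1 kb of either annotated gene end on hg38. H2A.Z, a variant of histone H2A, was mapped by chromatin immunoprecipitation and sequencing with a Flag antibody in the Caco-2/15 line, derived from human colon cancer and used as a model of enterocyte differentiation. There were 4 groups of 2 samples each, called Exp1 and Exp2: heterozygous H2AFV-Flag cells (tagged H2A.Z.2) at 7 days postconfluence, the same cells at subconfluence, heterozygous H2AFZ-Flag cells (tagged H2A.Z.1) at 7 days postconfluence, and the same cells at subconfluence. All 8 samples carried a Flag tag introduced by CRISPR-Cas9 into 1 allele, so the intervals show the tagged protein and not the product of the untagged allele. The labels state duplicates without saying whether these were separate cultures, so p-values here measure the spread between these samples, which may be technical. The state comparison asks where each isoform sat before and after the cells began to differentiate, and the isoform comparison asks whether the 2 tagged proteins occupied the same places.

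AP-1 is a dimer of a FOS protein (FOS, FOSB, FOSL1 or FOSL2) with a JUN protein (JUN, JUNB or JUND), and members of the ATF family such as ATF3 can take a place in it. Immediate early genes are switched on by growth factors, serum or stress without new protein synthesis, through MAP kinases that act on SRF with its ternary complex partners and on CREB and ATF factors already bound at their promoters. EGR1 is a zinc finger transcription factor of this response and IER2 is a short nuclear protein induced with it. H2A.Z is typically found in nucleosomes on either side of transcription starts, including those of genes that can be induced quickly.

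Promoter sequences of 5 genes are shown as examples of where H2A.Z lay. At FOS and EGR1 the strongest interval lay mainly upstream. At FOSB a gap between 2 intervals lay at or just after the start in all 8 lists, and at JUN such a gap held the start in 3. At JUND the promoter itself lay in no interval. The genes shared some of these features. FOSB also had more bp covered in the 1 kb upstream than downstream in 8 lists, and EGR1 had a gap at or just after its start in 4. Each sequence runs 5′ to 3′ from 250 bases before to 50 after the annotated start, taken from RefSeq (GRCh38.p14). Capitals mark matches on either strand to TGACNTCA (an ATF and JUN type element), TGACG (the core of a CREB element), TGANTCA (the AP-1 element), TATAAA or the CArG box bound by SRF. The coordinates are chr14:75278578-75278877, plus strand, for FOS, chr19:45467746-45468045, plus strand, for FOSB and chr1:58783998-58784297, minus strand, for JUN. They are chr19:18281573-18281872, minus strand, for JUND and chr5:138465229-138465528, plus strand, for EGR1.
FOS: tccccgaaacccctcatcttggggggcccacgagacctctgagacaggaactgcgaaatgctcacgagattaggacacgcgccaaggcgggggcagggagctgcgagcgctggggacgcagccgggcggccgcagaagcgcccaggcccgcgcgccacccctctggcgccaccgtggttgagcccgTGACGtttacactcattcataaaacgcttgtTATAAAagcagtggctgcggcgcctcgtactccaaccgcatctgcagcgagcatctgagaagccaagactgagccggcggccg
FOSB: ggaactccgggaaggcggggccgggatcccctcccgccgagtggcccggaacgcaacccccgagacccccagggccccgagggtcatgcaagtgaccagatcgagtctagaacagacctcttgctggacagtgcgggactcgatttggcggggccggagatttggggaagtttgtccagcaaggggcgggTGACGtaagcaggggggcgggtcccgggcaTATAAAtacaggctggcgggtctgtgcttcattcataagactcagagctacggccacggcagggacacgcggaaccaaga
JUN: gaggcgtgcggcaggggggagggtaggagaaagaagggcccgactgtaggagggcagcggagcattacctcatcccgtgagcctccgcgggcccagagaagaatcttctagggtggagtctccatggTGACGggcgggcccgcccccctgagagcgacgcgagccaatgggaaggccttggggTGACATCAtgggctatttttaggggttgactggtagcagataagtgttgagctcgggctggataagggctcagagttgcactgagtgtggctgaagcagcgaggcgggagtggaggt
JUND: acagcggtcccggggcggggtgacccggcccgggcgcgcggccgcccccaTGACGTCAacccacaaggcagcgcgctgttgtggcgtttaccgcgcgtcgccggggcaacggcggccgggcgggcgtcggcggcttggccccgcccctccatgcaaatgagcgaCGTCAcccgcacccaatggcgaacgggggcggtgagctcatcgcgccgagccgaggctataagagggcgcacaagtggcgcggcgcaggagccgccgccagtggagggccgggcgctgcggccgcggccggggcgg
EGR1: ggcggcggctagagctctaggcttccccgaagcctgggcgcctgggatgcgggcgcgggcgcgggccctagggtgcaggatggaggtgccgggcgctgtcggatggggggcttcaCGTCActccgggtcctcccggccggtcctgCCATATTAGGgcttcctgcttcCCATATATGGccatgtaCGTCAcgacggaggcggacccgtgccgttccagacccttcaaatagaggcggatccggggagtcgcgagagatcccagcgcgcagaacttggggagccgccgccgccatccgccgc

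The promoter table held 10 promoters of 9 of the genes, ATF3 having 2, and FOSL1 was not among them. The CArG box was found in 1 of these 10 promoters, that of EGR1, which held 2 matches with their first bases 105 and 83 bases before the start, against 1.29% of all 35116 promoters in the table. TGACNTCA was found in 3 of the 10, those of ATF3, JUN and JUND, against 7.72% of all promoters. In JUN it read TGACATCA with its first base at -67, and in JUND it read TGACGTCA with its first base at -200. TGACG was found in 8 of the 10, against 24.6% of all promoters, and the TGACGTCA of JUND contains it on both strands, which gives 3 overlapping pairs of matches. TATAAA was found in 4 of the 10, with its first base at -33 in FOS and at -30 in FOSB, against 11.5% of all promoters. TGANTCA was found in 1, that of FOSL2, against 7.71% of all. A match describes letters only, and bases farther than 250 before or 50 after a start were not searched, so an element missing here may lie outside.

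H2A.Z intervals were found at a gene end of 9 of the 10 genes in all 8 lists, the exception being ATF3. Of all 20037 protein-coding genes, 54.5% were occupied in all 8 lists. All lists were compared at the same length, that of the shortest, by keeping the 30603 intervals with the lowest p-values. Occupied means that an interval touched, by 1 bp or more, the stretch reaching 1 kb to both sides of a gene end. In the deposited lists as a whole, of 30603 to 79425 intervals, the same 9 genes were occupied in all 8 and ATF3 again in 2. No gene of the 10 was occupied in every list of one group and in none of the group it was set against, in any of 6 comparisons. Between 0.00499% and 0.664% of all genes showed such a pattern, by comparison and direction. In H2A.Z.2, postconfluent against subconfluent, it was 0.664% for postconfluent cells alone and 0.429% for subconfluent cells alone. In H2A.Z.1 these shares were 0.509% and 0.594%. For H2A.Z.2 alone against H2A.Z.1 alone they were 0.14% and 0.499% in postconfluent cells and 0.17% and 0.649% in subconfluent cells. Over all 8 lists they were 0.105% and 0.0848% by state, and 0.00499% and 0.0449% by isoform.

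**Figure D1:**
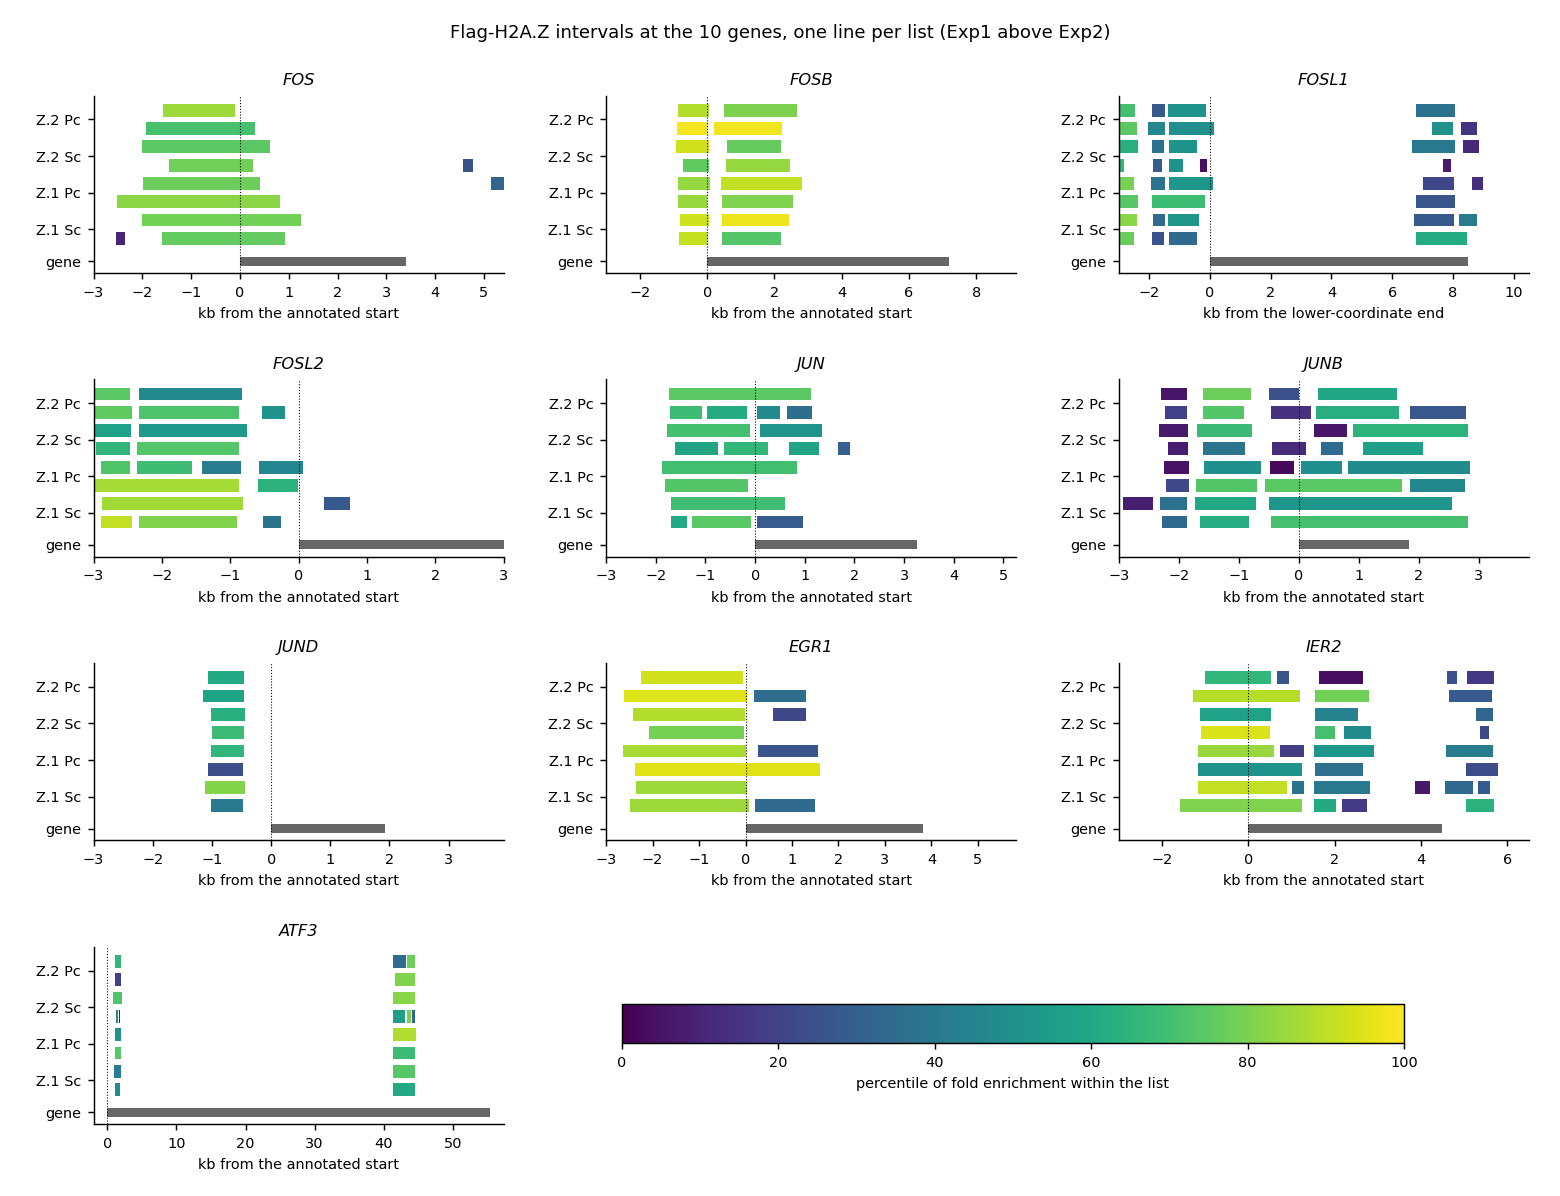
Intervals at each of the 10 genes in the 8 lists, drawn as bars against the distance in kb from the annotated start (for FOSL1, from the end of lower coordinate), with the gene as a grey bar and the colour giving the percentile of the authors' fold enrichment within the list. Intervals of FOS and EGR1 lie mainly upstream, FOSB has an interval on each side of a gap, JUND has 1 short upstream interval in every list, and ATF3 has a block 41.3 to 44.7 kb into the gene.

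FOS (chr14:75278828-75282230, plus strand), the founding AP-1 subunit, had 1 interval at its start in each of the 8 lists. It began between 2522 and 1464 bp before the start and ended between 106 bp before and 1244 bp after it. The interval was 1470 and 2223 bp wide for H2A.Z.2 in postconfluent cells, 2632 and 1737 bp for H2A.Z.2 in subconfluent cells, 2388 and 3339 bp for H2A.Z.1 in postconfluent cells, and 3256 and 2521 bp for H2A.Z.1 in subconfluent cells. Its median width of 2454.5 bp was larger than that of 98.3% of the 10919 genes occupied in all 8 lists. The start base lay inside the interval in 7 lists, and a median of 1000 of the 1000 bp upstream were covered, against 515 bp of those downstream. Across 11802 promoters with an interval within 1 kb of the start in all 8 lists, the medians were 656.5 bp upstream and 620 bp downstream, and 52.8% had more bp covered upstream. By fold enrichment, a ratio given by the authors' peak caller and used here only as a rank, FOS stood at percentiles 85.3 and 71.0 in H2A.Z.2 postconfluent lists, 74.8 and 78.4 in H2A.Z.2 subconfluent lists, 77.4 and 82.5 in H2A.Z.1 postconfluent lists, and 78.8 and 75.8 in H2A.Z.1 subconfluent lists. These ranges overlap between all 4 groups.

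FOSB (chr19:45467996-45475179, plus strand), which dimerises with JUN proteins as FOS does, had 2 intervals in all 8 lists. The upstream interval covered 774 to 991 bp and ended between 13 bp before and 77 bp after the start, and the interval inside the gene covered 1606 to 2411 bp. The gap between them was 167 to 534 bp wide, with a median of 421.5 bp. The stretch from 78 to 198 bp after the start lay in the gap in every list, just downstream of the TATAAA and TGACG matches printed above. FOSB had the highest median percentile of the 9 ranked genes, 91.0, above that of 81.3% of the ranked genes. It stood at 88.4 and 98.4 in H2A.Z.2 postconfluent lists, 92.7 and 84.1 in H2A.Z.2 subconfluent lists, 90.9 and 84.4 in H2A.Z.1 postconfluent lists, and 96.9 and 91.1 in H2A.Z.1 subconfluent lists. The stronger interval was the one inside the gene in H2A.Z.2 subconfluent Exp2, H2A.Z.1 postconfluent Exp1 and H2A.Z.1 subconfluent Exp1. In the other lists it was the upstream one.

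FOSL1 (chr11:65892049-65900545), whose product FRA1 is linked to cell migration and invasion, was occupied at both ends in all 8 lists. At the end of lower coordinate 679 to 1745 bp were covered, and these intervals were shared in all 8 lists with CCDC85B, a neighbouring gene, so they cannot be assigned to either gene. At the end of higher coordinate 251 to 1945 bp were covered, at percentiles between 7.37 and 61.1. FOSL1 had the lowest median percentile of the 9, 51.9, and 10.7% of ranked genes had a lower one. It stood at 50.9 and 50.1 in H2A.Z.2 postconfluent lists, 51.7 and 50.7 in H2A.Z.2 subconfluent lists, 52.3 and 68.5 in H2A.Z.1 postconfluent lists, and 52.1 and 61.1 in H2A.Z.1 subconfluent lists. The 4 H2A.Z.2 lists lay below the 4 H2A.Z.1 lists, by as little as 0.355 points, and the limma test of that difference is given with the isoform comparison. The strongest interval lay at the end of higher coordinate in H2A.Z.2 postconfluent Exp2 and H2A.Z.1 subconfluent Exp2. It lay at the end of lower coordinate in the other lists, so these percentiles mix the 2 ends. In those other lists its summit lay at -1207 to -976 bp from that end, inside the annotated span of CCDC85B (chr11:65890673-65891635).

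FOSL2 (chr2:28392858-28417317, plus strand), which encodes FRA2, carried most of its H2A.Z away from its start. In all 8 lists, 1 to 3 intervals lay between 3309 and 760 bp before the start, over the antisense transcript FOSL2-AS1 (chr2:28384409-28394672), and covered 1819 to 2357 bp. A further interval next to the start, beginning 593 to 519 bp before it, was listed in 4 lists: both H2A.Z.1 postconfluent lists, H2A.Z.2 postconfluent Exp2 and H2A.Z.1 subconfluent Exp2. The start base was covered in 1 list. Across promoters with an interval within 1 kb of the start in all 8 lists, the start base was covered in all 8 lists at 57.3% and in none at 11.0%. Percentiles were 46.9 and 72.3 in H2A.Z.2 postconfluent lists, 54.1 and 73.3 in H2A.Z.2 subconfluent lists, 45.8 and 86.4 in H2A.Z.1 postconfluent lists, and 85.7 and 81.2 in H2A.Z.1 subconfluent lists, so that lists of 1 group differed by up to 40.7 points. These values did not follow 1 interval. The summit was at -413 in H2A.Z.1 postconfluent Exp1 and between -2628 and -1814 in the other lists. Upstream intervals, counted also beyond the 1 kb window, reached at least percentile 57.5 in every list.

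JUN (chr1:58780791-58784047, minus strand), the partner that also dimerises with itself, had bp covered on both sides of its start in 7 lists. Its intervals reached JUN-DT, a divergent long non-coding RNA, in 7 lists. The start base was covered in 4 lists. In 3 others, H2A.Z.2 postconfluent Exp2, H2A.Z.2 subconfluent Exp1 and H2A.Z.1 subconfluent Exp2, it lay in a gap of 118 to 207 bp between 2 intervals. The stretch from 83 bp before to 34 bp after the start lay in the gap in all 3, and the TGACATCA printed above, 67 bp before the start, falls in it. In the last list, H2A.Z.1 postconfluent Exp2, 855 of the 1000 bp upstream and 0 of those downstream were covered, and the deposited list as a whole holds a further interval of 1387 bp downstream. JUN stood at percentiles 74.9 and 61.5 in H2A.Z.2 postconfluent lists, 70.1 and 65.8 in H2A.Z.2 subconfluent lists, 69.6 and 73.1 in H2A.Z.1 postconfluent lists, and 69.3 and 74.6 in H2A.Z.1 subconfluent lists. Its range over the lists, 13.4 points, was the narrowest of the 9 genes.

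JUNB (chr19:12791486-12793315, plus strand), known as a brake on proliferation in several cell types, has its start inside the annotated span of HOOK2, and intervals were shared with that gene in all 8 lists. An upstream interval ended between 922 and 635 bp before the start in every list, and the start base itself was covered in 6. The length covered from 1 kb before to 1 kb after the gene was 2023 and 3043 bp in H2A.Z.2 postconfluent lists, 2682 and 2043 bp in H2A.Z.2 subconfluent lists, 3469 and 3489 bp in H2A.Z.1 postconfluent lists, and 3346 and 3445 bp in H2A.Z.1 subconfluent lists. All 4 H2A.Z.2 values lay below the 4 H2A.Z.1 values. Its percentiles ran from 49.9 in H2A.Z.1 postconfluent Exp1 to 77.7 in H2A.Z.2 postconfluent Exp1.

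JUND (chr19:18279694-18281622, minus strand), the JUN protein that is present in resting cells, had the narrowest strongest interval of the 9 ranked genes by its median width, 589.5 bp. A single interval of 543 to 695 bp lay upstream in each list, from between 1147 and 993 bp to between 475 and 437 bp before the start, over the microRNA gene MIR3188 and the non-coding LOC124904652. None of the 300 promoter bases printed above was covered in any list, and the start base was covered in 0 of 8. Its percentiles were 60.4 and 58.2 in H2A.Z.2 postconfluent lists, 63.4 and 68.0 in H2A.Z.2 subconfluent lists, 65.5 and 23.7 in H2A.Z.1 postconfluent lists, and 81.4 and 40.9 in H2A.Z.1 subconfluent lists. The 2 H2A.Z.1 lists of Exp2 were the lowest of the 8, which is a difference within groups. The 8 values of the length covered at JUND ran from 526 to 564 bp, a narrower range than at any other of the 10 genes.

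EGR1 (chr5:138465479-138469303, plus strand) had the largest median width of the strongest interval among the 9 ranked genes, just above the 2454.5 bp of FOS. In several single lists the strongest interval of FOS, JUN or JUNB was wider. The interval began between 2638 and 2073 bp before the start and ended between 50 bp before and 1593 bp after it, covering at least 201 of the 300 promoter bases in every list. Its median width of 2486.5 bp exceeded that of 98.4% of ranked genes. It was 2201 and 2657 bp wide in H2A.Z.2 postconfluent lists, 2410 and 2051 bp in H2A.Z.2 subconfluent lists, 2657 and 3973 bp in H2A.Z.1 postconfluent lists, and 2402 and 2563 bp in H2A.Z.1 subconfluent lists. A separate interval inside the gene was listed in 4 lists. EGR1 stood at percentiles 92.9 and 94.6 in H2A.Z.2 postconfluent lists, 88.4 and 79.2 in H2A.Z.2 subconfluent lists, 86.9 and 95.0 in H2A.Z.1 postconfluent lists, and 85.2 and 85.4 in H2A.Z.1 subconfluent lists. Within each isoform both postconfluent values lay above both subconfluent values, while over both isoforms the ranges overlapped.

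IER2 (chr19:13150411-13154911, plus strand) was the only one of the 9 genes with an annotated start used here to have its start base covered in all 8 lists, by an interval from 1592 to 1009 bp before the start to 496 to 1250 bp after it. That interval was shared in every list with STX10, whose end of higher coordinate (chr19:13150375) lies beside the start of IER2. It cannot be assigned to either gene, and whether that end is the start of STX10 was not examined. A second set of intervals at the far end of the gene covered 218 to 1293 bp. Its percentiles were 65.7 and 88.9 in H2A.Z.2 postconfluent lists, 57.6 and 94.2 in H2A.Z.2 subconfluent lists, 84.5 and 50.5 in H2A.Z.1 postconfluent lists, and 90.6 and 80.5 in H2A.Z.1 subconfluent lists. The experiments of a group differed by 23.3 points in H2A.Z.2 postconfluent, 36.7 in H2A.Z.2 subconfluent, 34.0 in H2A.Z.1 postconfluent and 10.1 in H2A.Z.1 subconfluent cells, with Exp2 higher in H2A.Z.2 and lower in H2A.Z.1.

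ATF3 (chr1:212565407-212620777, plus strand), a stress-induced member of the ATF family, differed from the other 9 in where its H2A.Z lay relative to the annotated gene ends. An interval 832 to 1172 bp after the first annotated start was listed in all 8 lists, and it reached into the 1 kb window in 2 of them, H2A.Z.2 subconfluent Exp1 at percentile 72.6 and H2A.Z.1 subconfluent Exp1 at 41.2. Neither of the 2 ATF3 promoters used here was covered in any list. Other starts of ATF3 were not examined, so whether the block described next covers one of them was not determined here. A lack of H2A.Z at the promoters of ATF3 is therefore not shown. The larger domain was a block inside the gene at chr1:212606687-212610083, 41.3 to 44.7 kb from the first start, which was singled out after its values were seen. It was listed in all 8 lists, as 1 interval in 6 and as several in H2A.Z.2 postconfluent Exp1 and H2A.Z.2 subconfluent Exp2, and covered 2869 to 3339 bp. Of the 9118 genes not occupied in all 8 lists, 13.9% had intervals in all 8 lists inside the gene and away from its ends. Of those 1266 genes, 6.08% had at least as many bp covered there as ATF3. The ATF3 value, a median of 3864.5 bp, counts all such intervals inside the gene and not the block alone. The strongest interval of the block stood at percentiles 77.5 and 80.5 in H2A.Z.2 postconfluent lists, 82.2 and 80.0 in H2A.Z.2 subconfluent lists, 88.0 and 68.3 in H2A.Z.1 postconfluent lists, and 73.8 and 60.8 in H2A.Z.1 subconfluent lists. By a 2-sided exact permutation test of 4 lists against 4, whose smallest possible p is 0.0286, p was 0.486 by state and 0.257 by isoform (0.648 and 0.514 adjusted over 4 tests). The same exact permutation test on the bp covered gave p = 0.971 by state and 0.114 by isoform (0.971 and 0.457 adjusted over 4 tests).

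**Figure D2:**
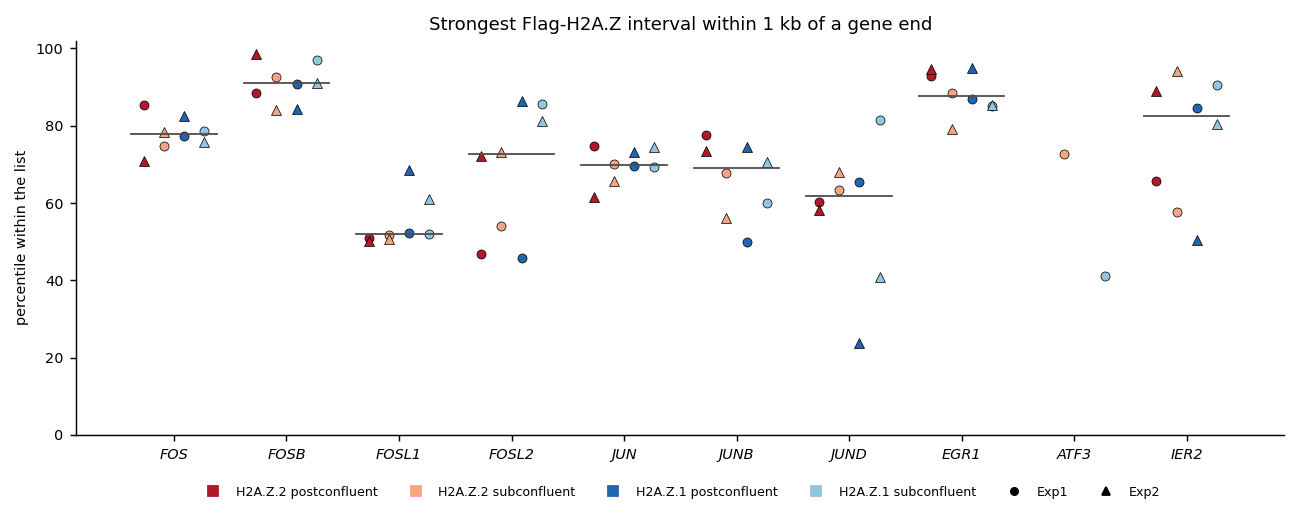
Percentile within the list (vertical axis) of the strongest interval at each gene, with circles for Exp1, triangles for Exp2, colours for the 4 groups and a horizontal line at the median of the 8 lists. FOSB and EGR1 stand at or above 79.2 in every list, FOSL1 lies between 50.1 and 68.5, and JUND falls to 23.7 in 1 list; ATF3 has a value in 2 lists and no median line.

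The 9 AP-1 and immediate early genes were set beside the 10919 genes occupied in all 8 lists as a description, with no test of the difference. Covered length includes the whole gene and was not corrected for gene length. The median over the 9 genes of their median covered length was 1938.5 bp, against 1419 bp over all ranked genes. The median width of the strongest interval was 1501 bp, against 1124 bp. The median percentile was 72.8, against 78.1, and it was the lower one in 7 of the 8 lists, the exception being H2A.Z.1 subconfluent Exp1 with 81.4 against 78.8. The 9 genes differed widely among themselves: FOSL2 had 421 bp covered, JUND 545.5 bp, FOS 1515 bp, JUN 1842 bp, EGR1 1938.5 bp, FOSL1 2314 bp, FOSB 2902 bp, JUNB 3194.5 bp and IER2 3815 bp. FOSL2 and JUND had more bp covered than 0.751% and 2.04% of ranked genes, while IER2 had more than 97.3%. The FOSL2 value leaves out most of its upstream intervals, which covered 1819 to 2357 bp but lay largely beyond the 1 kb window. By median width of the strongest interval, FOSL2 exceeded 76.3% of ranked genes. In order of median percentile, FOSB (91.0), EGR1 (87.7) and IER2 (82.5) came first, followed by FOS (77.9), FOSL2 (72.8), JUN (69.8), JUNB (69.1), JUND (61.9) and FOSL1 (51.9). The ranges over the 8 lists of each pair of neighbours in this order overlapped.

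**Figure D3:**
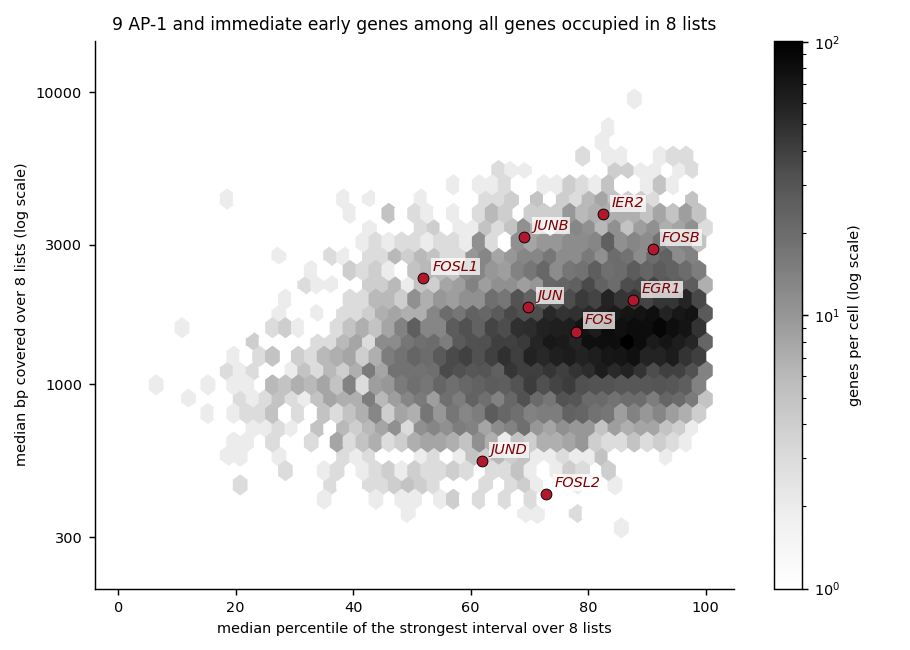
Median covered length over the 8 lists in bp (vertical, log scale) against the median percentile of the strongest interval (horizontal) for the 10919 genes occupied in all 8 lists, shaded by the number of genes, with the 9 genes as red points. FOSL2 at 421 bp and JUND at 545.5 bp lie at the low edge of the cloud, IER2 at 3815 bp near its upper edge, and FOSL1 at percentile 51.9 to the left. Most of the upstream intervals of FOSL2 lie beyond the 1 kb window and are not counted.

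By growth state, none of the 9 genes passed the test in either measure. For each measure the ranked genes were given normal scores within each list, in standard deviations, and the 4 groups were compared with limma, with Benjamini-Hochberg adjustment over the 10919 genes and a threshold of 0.05. By fold enrichment, postconfluent minus subconfluent over both isoforms, 0 of the 9 were called, against 0.055% of all genes (6 genes, 5 higher and 1 lower). EGR1 had the largest difference of score, 0.55 (SE 0.351), with an adjusted p of 0.654 by limma. It was 0.68 (SE 0.497) in H2A.Z.2 and 0.42 (SE 0.497) in H2A.Z.1. Within H2A.Z.2 and within H2A.Z.1, 0 of 9 genes and 0% of all genes were called by limma in either measure. Without the adjustment, p was under 0.05 by fold enrichment for 0 of the 9 genes and 5.83% of all genes in H2A.Z.2, for 0 of the 9 and 6.91% of all in H2A.Z.1, and for 0 of the 9 and 9.13% of all over both isoforms. The other 8 genes had differences of score over both isoforms between -0.47, at IER2, and 0.20, at JUNB.

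The length covered was where a gene of the set came nearest to a difference by state. FOS had 895 and 1300 bp covered in H2A.Z.2 postconfluent lists against 1623 and 1273 bp in H2A.Z.2 subconfluent lists, and 1407 and 1817 bp in H2A.Z.1 postconfluent lists against 2245 and 1922 bp in H2A.Z.1 subconfluent lists. The postconfluent values lay below both subconfluent values in H2A.Z.1, and in H2A.Z.2 the groups overlapped by 27 bp. Covered length counts at most 1000 bp upstream, and these were covered whole except in H2A.Z.2 postconfluent Exp1, with 895 bp. The values therefore differ mainly downstream of the start. Widths of the whole FOS interval, given above, overlapped between the states in both isoforms. For covered length the difference of score was -0.84 (SE 0.238) over both isoforms, with an unadjusted limma p of 0.00985 and an adjusted p of 0.260. It was -0.85 (SE 0.337, adjusted p = 0.590 by limma) in H2A.Z.2 and -0.83 (SE 0.337, adjusted p = 0.725 by limma) in H2A.Z.1. Over both isoforms 0.00916% of all genes, 1 gene, were called, and 11.1% had an unadjusted p under 0.05. FOS was the 1 gene of the 9 among these 11.1%. It was also the 1 gene of the 9 in each isoform, against 8.17% of all genes in H2A.Z.2 and 6.57% in H2A.Z.1. JUN followed with a difference of -0.65 (SE 0.393), and FOSL2 had the highest, 0.46 (SE 0.224), with adjusted p of 0.571 for JUN and 0.505 for FOSL2 by limma. The median of all genes was -0.05 on this scale.

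**Figure D4:**
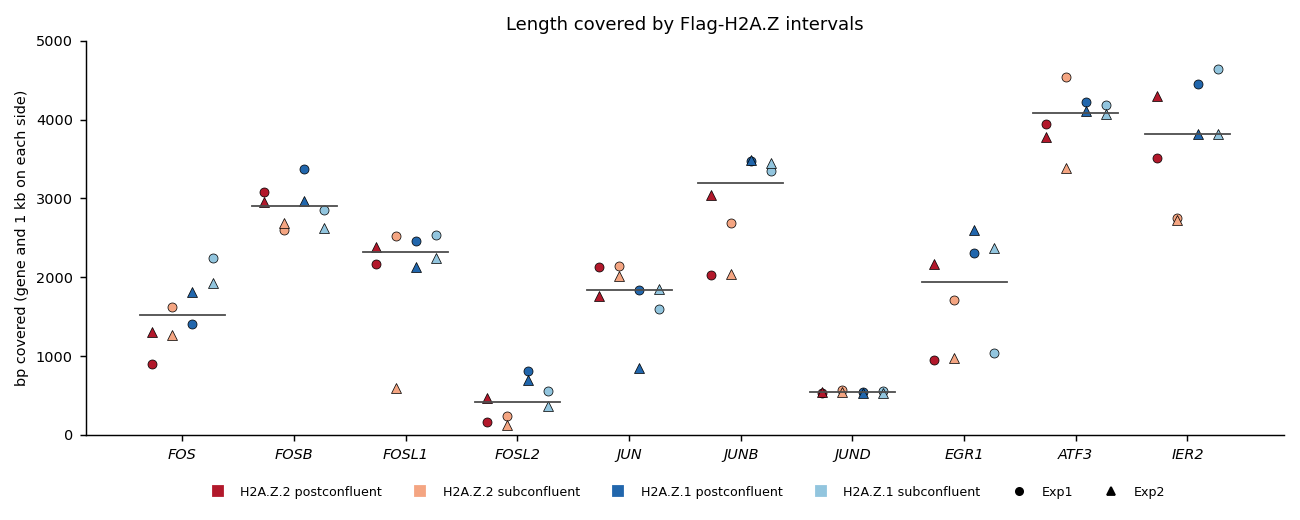
Length in bp covered by intervals from 1 kb before to 1 kb after each gene (vertical axis, from 0), with circles for Exp1, triangles for Exp2, colours for the 4 groups and a line at the median of the 8 lists. At FOS the postconfluent values are 895 to 1817 bp against 1273 to 2245 bp in subconfluent lists, JUNB is at 2023 to 3043 bp for H2A.Z.2 against 3346 to 3489 bp for H2A.Z.1, and JUND is at 526 to 564 bp in every list.

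By isoform, none of the 9 genes passed the test either. Over both states, H2A.Z.2 minus H2A.Z.1, 0 of 9 genes and 0% of all genes were called by limma in both measures. Without the adjustment, p was under 0.05 by fold enrichment for 0 of the 9 genes and 3.75% of all genes, and by covered length for 2 of the 9, FOS and FOSL2, and 8.31% of all. FOSL2 had 169 and 470 bp covered in H2A.Z.2 postconfluent lists and 241 and 127 bp in H2A.Z.2 subconfluent lists, against 809 and 702 bp in H2A.Z.1 postconfluent lists and 562 and 372 bp in H2A.Z.1 subconfluent lists. Values of H2A.Z.2 lay below those of H2A.Z.1 in each state, except that H2A.Z.2 postconfluent Exp2 exceeded H2A.Z.1 subconfluent Exp2. These lengths leave out most of the upstream intervals of FOSL2, which lay beyond the 1 kb window. The difference of score at FOSL2 was -0.83 (SE 0.224) with an unadjusted p of 0.00806 and an adjusted p of 0.573 by limma. At FOS it was -0.69 (SE 0.238, adjusted p = 0.594 by limma).

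In postconfluent cells 0 of 9 genes and 0% of all were called by limma in either measure, and by covered length FOSL2 (-0.92, SE 0.317, adjusted p = 0.954 by limma) was the 1 gene with an unadjusted p under 0.05, as 4.33% of all genes had. In subconfluent cells 0 of 9 and 0% of all were called by limma, and no gene of the 9 had an unadjusted p under 0.05, against 6.81% of all genes by covered length and 3.71% by fold enrichment. By fold enrichment in postconfluent cells it was 0 of the 9 and 3.53% of all. JUNB, whose covered lengths did not overlap between the isoforms, had a difference of -0.39 (SE 0.174) over both states, with an adjusted p of 0.609 by limma. JUN had the highest difference, 0.90 (SE 0.393), with an adjusted p of 0.609 by limma. By fold enrichment the largest was that of FOSL2, -0.58 (SE 0.407, adjusted p = 0.999 by limma), while FOSL1, whose 4 H2A.Z.2 percentiles lay below its 4 H2A.Z.1 percentiles, had -0.21 (SE 0.350, adjusted p = 0.999 by limma). At FOSL2 and FOSL1 the strongest interval, whose fold enrichment is compared here, was not the same one in every list.

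**Figure D5:**
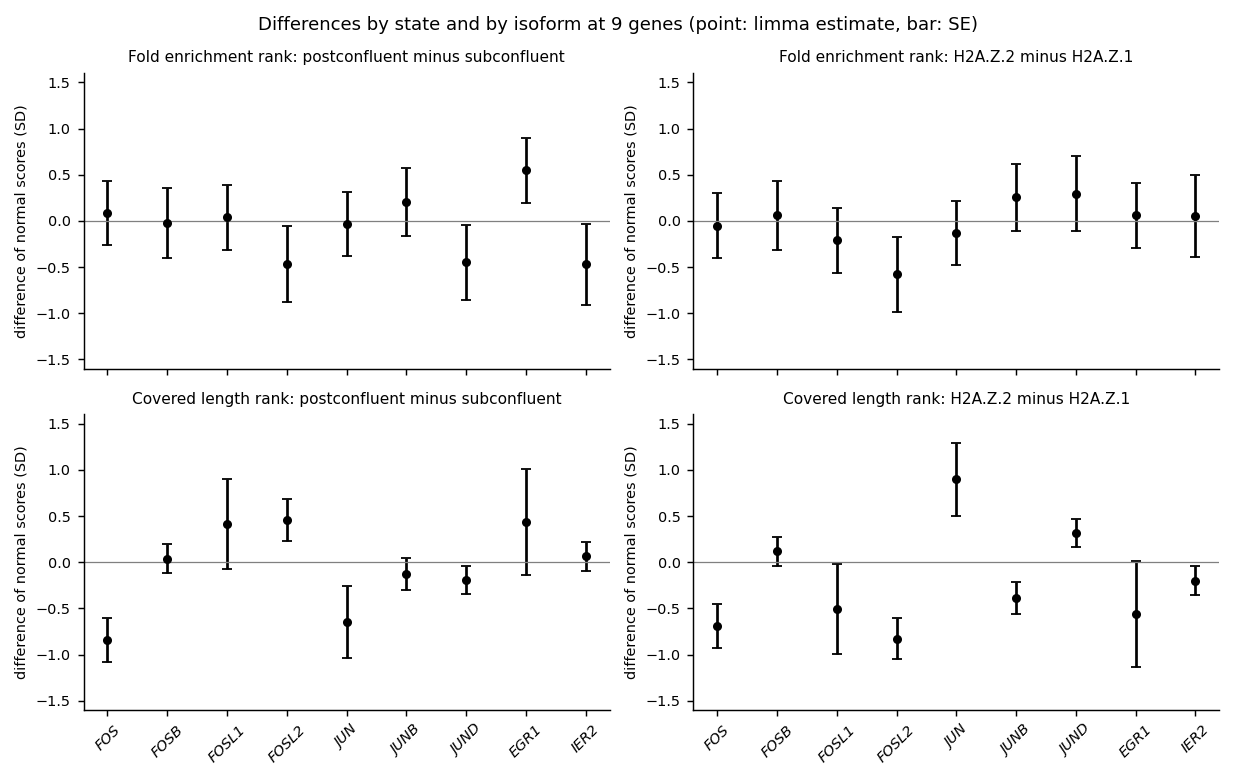
Differences of normal scores (vertical axes, in SD) for fold enrichment (upper panels) and covered length (lower panels), postconfluent minus subconfluent on the left and H2A.Z.2 minus H2A.Z.1 on the right; points are limma estimates and bars are 1 SE. The largest departures from 0 are covered length at FOS by state (-0.84) and at FOSL2 (-0.83) and JUN (0.90) by isoform, and no adjusted p was under 0.05.

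The effect of state did not differ detectably between the isoforms. For that difference 0 of 9 genes and 0% of all were called by limma in either measure, and 0 of 9 had an unadjusted p under 0.05, against 3.18% of all genes by fold enrichment and 3.43% by covered length. The largest difference between the isoforms by fold enrichment was at FOSB, 1.10 (SE 0.749), where the state difference was 0.53 in H2A.Z.2 and -0.57 in H2A.Z.1. With an adjusted p of 1.00 by limma it was within the spread between lists. By covered length it was at FOSL1, 1.31 (SE 0.979, adjusted p = 0.999 by limma), where H2A.Z.2 subconfluent Exp2 had 594 bp covered and the other 7 lists 2134 to 2530 bp. That list has the lowest covered length of all 8, and its part in this value was not tested.

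Genes around the 10 in the same response were mostly occupied as well. Of 22 upstream MAP kinases and SRF, TCF and CREB factors, 17 were occupied in all 8 lists, among them SRF, CREB1, ELK3 and ELK4, while MAP2K4 and MRTFB were in none. Of 20 other immediate early genes it was 14, among them NR4A1, EGR3 and KLF6, and ARC and NPAS4, known from neurons, were in none. Of 18 feedback inhibitors, which end the response, it was 15, among them DUSP1, SPRY4 and SOCS3, and ZFP36L2 was in none. Of 12 other AP-1 and small MAF family genes it was 9. Of 14 textbook AP-1 targets it was 4, CCND1, PLAUR, PTGS2 and HMOX1, and MMP1, MMP3, MMP7, MMP9, TIMP1 and CXCL8 were in none. In the deposited lists as a whole, ARC was occupied in 4 lists, NPAS4 in 2, and MAP2K4 and ZFP36L2 in 1 each. The share of all genes occupied in all 8 lists was the 54.5% given above, and in none it was 33.1%.

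None of the ranked genes of these lists was called in any of the 7 comparisons by either measure. By fold enrichment and state over both isoforms, the median difference of score was -0.24 over the 17 upstream genes, 0.02 over the 14 other immediate early genes, -0.01 over the 15 feedback inhibitors, 0.13 over the 9 other family genes and 0.10 over the 4 targets, beside -0.02 over the 9 genes and 0.00 over all ranked genes. PTGS2, which encodes the inducible cyclooxygenase, had the largest difference of any of these genes, -2.005 (SE 0.410), with an adjusted p of 0.0720 by limma. Under 14 alternatives its adjusted p ran from 0.0284 to 0.303 and was under 0.05 in 3. The largest in the other lists was -1.22 at MRTFA, a cofactor of SRF, -0.96 at BTG2, an antiproliferative gene, -0.89 at SPRED2, an inhibitor of RAS signalling, and -0.42 at ATF7, with adjusted p of 0.304, 0.381, 0.488 and 0.812 by limma.

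Each of the 9 ranked genes had a gene whose scores by fold enrichment over the 8 lists were closest to its own, by root mean square difference. These were NT5C2 for FOS (0.151), ABCA2 for EGR1 (0.154), TONSL for JUN (0.156), OSBPL1A for FOSL1 (0.161), FEM1B for FOSB (0.200), ZBTB16 for JUNB (0.215), PSMA3 for JUND (0.222), LMBRD2 for IER2 (0.321) and MOGS for FOSL2 (0.335). The median of this measure over all other genes was 0.837 for FOS, the lowest, and 1.19 for JUND, the highest.

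Intervals of fixed cell type markers give a check of position only, since H2A.Z does not measure expression. Of 10 colon epithelium markers, CDX1, CDX2, HNF4A and CDH1 were occupied in all 8 lists, while KRT20 and SI were in none. VIL1 was occupied in 6 lists, EPCAM in 5, and KRT8 and KRT18 in 4 each. Of 8 markers of other cells 1, COL1A1, was occupied in all 8 and 4 were in none. PECAM1 was occupied in 7 lists, CD3E in 6 and GFAP in 1. Among all protein-coding genes 54.5% were occupied in all 8 lists and 33.1% in none, so the share of epithelial markers in all 8, 40%, was below that of all genes. The Spearman correlation of fold enrichment over the ranked genes was 0.652 to 0.684 between the 2 lists of a group. Between lists of different groups it was 0.556 to 0.747, a range that holds the values within groups. The list of H2A.Z.2 subconfluent Exp2 was used whole, down to a −log10 p of 5.19, while the others ended between 9.99 and 16.8.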

How the data were processed

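Flag-H2A.Z immunoprecipitates were sequenced as single reads of 85 bp, and 1 peak list per sample, unpooled, was deposited. The submitters' processing notes name BWA, deepTools and hg38; the peak caller, its control and any use of the spike-in, not given in the sources used here, are unknown. For each interval the deposited files give a score (10 times the −log10 q-value, as whole numbers), the authors' fold enrichment (a ratio whose denominator is not stated), p-values and q-values on a −log10 scale, and how far the summit lies from the interval start in bp. A list holds no read counts, so depth, counting intervals and detection limits are unknown. Of 17 samples in the labels, 9 were not analysed here: those for total H2A.Z and 1 input.

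Because the longest list held 2.60 times as many intervals as the shortest, the 30603 intervals with the highest −log10 p were kept from every list, and fold enrichment was used as a percentile within its list. Gene ends came from RefSeq (GRCh38.p14), and strands and starts from its promoter table, in which 9 of the 10 genes were found. For the 10919 genes occupied in all 8 lists, fold enrichment of the strongest interval and the bp covered were turned into normal scores within each list and tested in limma 3.58.1 under R 4.3.3, in a model of 4 group means that share their spread, with 7 comparisons for each measure. The strongest interval was chosen anew in each list, so it need not be the same interval across lists. Overlaps used Python 3.11.15 and pandas 2.3.3, and were tested on simulated intervals. The genes and the other gene lists were chosen with earlier results of these data known. Differences with SE are named for genes with an unadjusted p under 0.05, or for the largest where there was none, and for the largest of each other list by state; those of other genes are given to complete the range or because their values did not overlap, and were chosen after their values were seen. The most alike gene is the one with the smallest root mean square difference of scores over 8 lists, leaving out genes that share the interval. Alternatives were whole lists, lists of 15301 intervals, lists of equal covered length, windows of 0.5 and 2 kb, the summit in the window, ranking by −log10 p, the experiment number as a block, and leaving out each list.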

Additional observations from a re-analysis of the deposited data

How the results depend on the processing

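None of the genes that could be tested was called in any of 217 fits under the alternatives. Of the 10 genes, 4 could be tested with lists of 15301 intervals, 5 with the summit in the window, 6 with equal covered length, 8 with a 0.5 kb window, 10 with a 2 kb window and 9 otherwise. The differences of score at FOS, FOSL2 and EGR1 named by the rule kept their sign in the 11 to 15 alternatives that gave a value, but their size moved. For covered length, FOS ran from -1.04 to -0.49 by state over both isoforms, from -1.24 to -0.45 in H2A.Z.2, from -1.19 to -0.29 in H2A.Z.1 and from -0.99 to -0.43 by isoform. FOSL2 by isoform ran from -1.06 to -0.33, the weakest with a 2 kb window, and in postconfluent cells from -1.37, without H2A.Z.2 postconfluent Exp2, to -0.36 with a 2 kb window, with -0.45 without H2A.Z.2 postconfluent Exp1. For fold enrichment, FOSL2 by isoform was -1.03 without H2A.Z.1 postconfluent Exp1 and -0.13 without Exp2 of that group, and EGR1 by state ran from 0.37 to 0.72. That of ATF7 by state ran from -0.89 to 0.05. Of the 10 genes, 4 instead of 9 were occupied in all 8 lists with lists of 15301 intervals, and 5 where the summit had to lie in the window, which left 6 instead of 10 in H2A.Z.2 subconfluent Exp1. Of all 20037 genes, 7562 and 10061 were occupied in all 8 lists under these settings, instead of 10919. The share of the 10 genes was then close to that of all genes. FOSL2 became 1 gene found with H2A.Z.1 alone in subconfluent cells with a 0.5 kb window or the summit in the window, and JUN 1 found with H2A.Z.2 alone in postconfluent cells with the summit in the window. Leaving out 1 list each gave 0 to 1 gene found in 1 state alone in either isoform. That gene was ATF3, in subconfluent cells, without H2A.Z.2 subconfluent Exp2 or without H2A.Z.1 subconfluent Exp2. Adjusted p by state for covered length at FOS ran from 0.230 to 0.439. Signal below the authors' threshold is not seen in a list, so an unlisted stretch is not shown to lack H2A.Z.

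Over all genes, calls by fold enrichment and state over both isoforms numbered 6, but 13 with whole lists, 0 with lists of 15301 intervals or of equal covered length, 3 with the summit in the window, 44 ranked by −log10 p, and 0 to 12 leaving out 1 list. In H2A.Z.2 they numbered 0, but 1 with a 0.5 kb window and 0 to 1 leaving out 1 list. In H2A.Z.1 they numbered 0, but 3 with a 2 kb window, 2 with the summit in the window, 2 ranked by −log10 p and 0 to 2 leaving out 1 list. By isoform in postconfluent cells they numbered 0, but 2 with a 0.5 kb window and 1 with the summit in the window. By covered length and state over both isoforms 1 gene was called, but 2 with whole lists, 31 with lists of 15301 intervals, 13 with a 0.5 kb window, 0 with the summit in the window and 0 to 7 leaving out 1 list. In H2A.Z.2 there were 0, but 9 with lists of 15301 intervals, 1 with equal covered length, 1 with a 2 kb window and 0 to 1 leaving out 1 list. In H2A.Z.1 there were 0, but 2 with lists of 15301 intervals, 1 with equal covered length and 0 to 2 leaving out 1 list. With lists of 15301 intervals there were also 8 by isoform in subconfluent cells, 5 by isoform over both states and 1 for the difference between isoforms.

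The experiment numbers were not shown to pair the samples: deviations of same-numbered lists correlated between the states at 0.16 in H2A.Z.2 and 0.21 in H2A.Z.1, and between -0.05 and 0.05 across isoforms. With the number as a replicate block, 14 genes were called by fold enrichment and state over both isoforms, 1 in H2A.Z.2 and 2 in H2A.Z.1, and 0 of the 9 genes in any comparison. The causes of these changes in counts were not tested.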
